A study of Mus musculus with 2 samples.

Results

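The Dppa genes (developmental pluripotency associated) and a group of further markers of undifferentiated mouse embryonic stem (ES) cells were examined in cells with and without induced CTCFL. The set was chosen by name as Dppa2, Dppa3, Dppa4, Dppa5a (also known as Dppa5), Fbxo15, Tcl1, Zfp42, Tdgf1, Gdf3 and Utf1. A probe set was taken where the platform annotation gave it 1 gene symbol equal to a member. All 10 genes were found among 19938 named genes, through 13 of 35557 probe sets. Dppa2, Dppa3 and Dppa4 had 2 probe sets each and the other 7 genes had 1.

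ES cells are derived from the inner cell mass of the blastocyst and keep their pluripotency in culture with leukemia inhibitory factor (LIF). Their markers fall into several roles. Dppa2 and Dppa4 encode SAP domain proteins that bind chromatin together, and Dppa3 (Stella, PGC7) encodes a small protein of the oocyte, the early embryo and primordial germ cells that keeps the maintenance machinery of DNA methylation away from the genome. Dppa5a (Esg1) encodes a KH domain RNA-binding protein. Zfp42 (Rex1) and Utf1 encode a zinc finger protein and a chromatin-bound factor that are shut off early in differentiation, and Fbxo15 encodes an F-box protein and is a classical target of OCT4 and SOX2. Tcl1 encodes a cofactor of the kinase AKT, while Gdf3 and Tdgf1 (Cripto) encode a TGF-beta family ligand and a coreceptor of the Nodal pathway. In mouse ES cultures Dppa3 and Zfp42 are known to be expressed unevenly from cell to cell.

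RNA was taken from mouse ES cells that carry the reverse tetracycline transactivator at the ROSA26 locus and a tetracycline-responsive CTCFL-V5-GFP transgene, CTCFL (BORIS) being a paralog of CTCF that is normally made in the testis. The induced cells received doxycycline for 3 days and were sorted for GFP, and the non-induced cells of the same line received none and were not sorted. Both were grown with LIF on gelatin. Cells were selected with G418, and whether they came from 1 clone is not given in the sources used here. There was 1 array for each condition, so that no replicate error can be given and no test was possible. Doxycycline, sorting and CTCFL cannot be told apart by this design.

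Values are log2 signals after robust multi-array averaging (RMA), and differences are induced minus non-induced. A gene was counted as lower or higher at a difference of log2 1 or more in size if the larger of its values reached the median of all gene values, 6.36, which served as a floor. Of the 10697 genes at or above this floor, 53.4% lay below 0 and the middle of the distribution ran from -0.28 to 0.22 (quartiles). Ctcfl itself, at 9.44 and 5.99, matched the labels. A measure of error within an array came from all 999 genes with several probe sets, sets below the floor included. Their differences had a pooled SD of 0.31 around the mean of their gene. This SD covers disagreement between probe sets, not the spread between cultures. The median gap between the sets of a gene was 0.24 over these 999 genes and 0.15 over the 550 whose sets all reached the floor.

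All 10 markers reached the floor in both arrays. Of these, 7 had a lower and 3 a higher signal in the induced array, with a median difference of -0.24, against -0.03 for all genes above the floor. Over the settings the median of the 10 markers ran from -0.34 (arrays centred) to -0.14 (second quantile normalization). Dppa3 was the 1 member counted as lower and 0 members were counted as higher, while 1.79% of all genes above the floor were lower and 0.477% higher by this size. These shares stand for 191 lower and 51 higher genes, which became 268 and 25 when each array was centred on its median. Without Dppa3 the median of the other 9 was -0.21. The remaining 9 members differed by -0.68 to 0.61. In bulk RNA, fewer cells that express a gene and less RNA in each cell cannot be told apart.

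**Figure D1:**
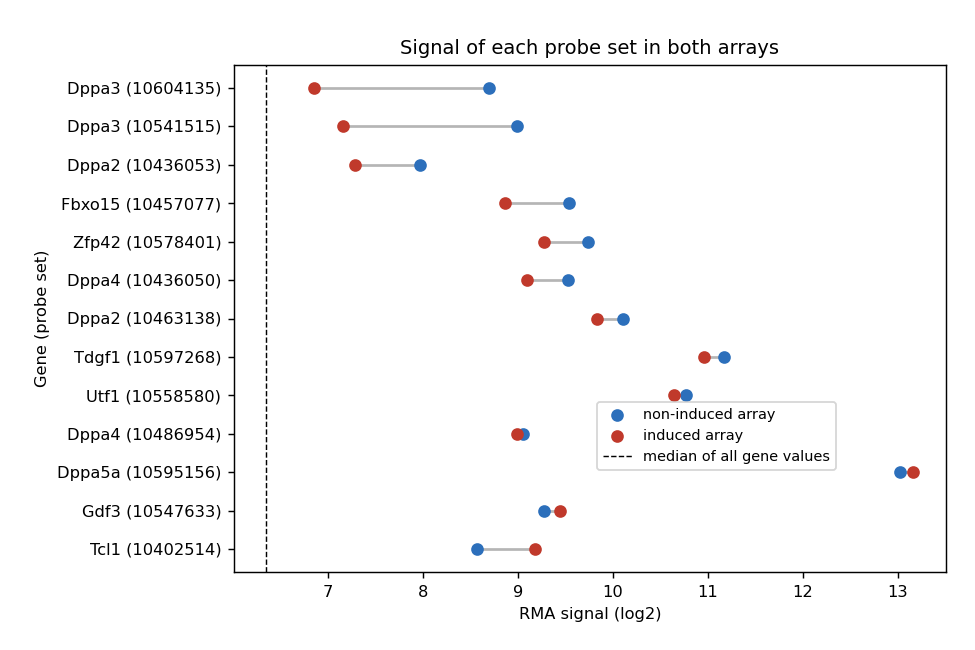
RMA signal on the log2 scale (horizontal axis) of each of the 13 probe sets (vertical axis, with the probe set number) in the induced (red) and the non-induced (blue) array. Lines join the 2 arrays, and the floor (6.36) is dashed. Both sets of Dppa3 show the widest gap, from 8.99 to 7.16 and from 8.70 to 6.86, and Tcl1 the widest gap to the right, from 8.57 to 9.18.

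Dppa3 had the widest difference of the set. Probe set 10541515 gave 7.16 for the induced and 8.99 for the non-induced cells, which is -1.83 or 3.55-fold lower. By probe set 10604135 it was 6.86 and 8.70, a difference of -1.84 or 3.57-fold lower. The induced array was therefore low by both sets, and the induced signal stayed above the floor. Ranked from the lowest difference, the first set stood at position 13 of the 10697 genes above the floor, in a ranking where 0.112% of genes were lower.

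The agreement of both Dppa3 sets was close. Their differences lay 0.01 apart, while the median gap was 0.15 over 550 genes whose several probe sets all reached the floor. Of these genes 5.45% had a gap as small. Some of them had the same difference by both sets, so a small gap need not mean 2 separate measurements. Every probe set was lower by log2 1 or more in 11 of the 550 genes, or 2%, and Dppa3 was 1 of these. Of the 11, Dppa3 had the widest difference when each gene is given its least extreme set, followed by Depdc1a, which encodes a DEP domain protein (-1.53), and Pdcd10, a gene of cerebral cavernous malformation (-1.35). The last 2 genes were named after their values were seen.

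**Figure D2:**
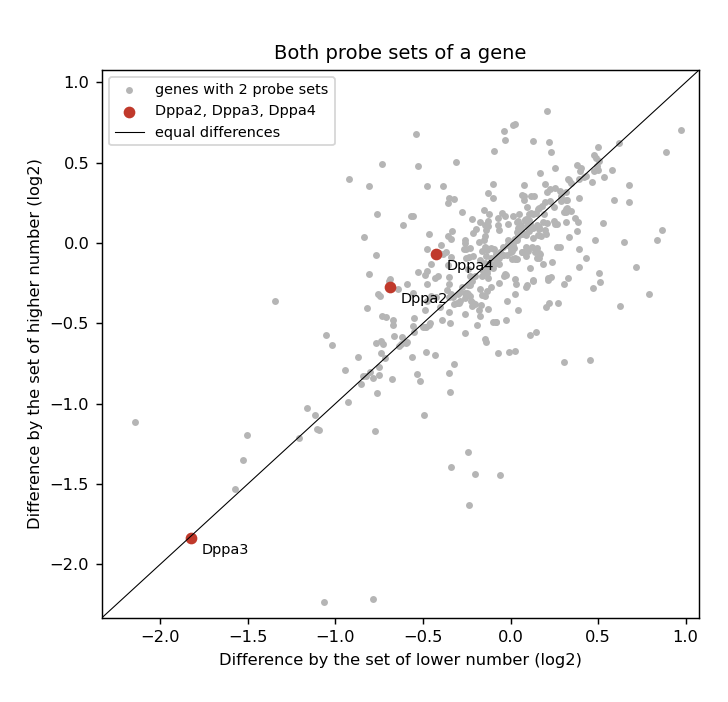
Log2 difference, induced minus non-induced, by the probe set of lower number (horizontal axis) and of higher number (vertical axis) for genes with 2 probe sets that both reached the floor, 1 point per gene. The line marks equal differences. Dppa3 lies on the line at -1.83 and -1.84, while Dppa2 and Dppa4 lie above it because their sets of higher number differed less.

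The sets of 1 Dppa gene may not read the same transcript. Probe set numbers on this array run along the chromosomes, and 97.1% of 21698 named probe sets had a neighbour in number on their own chromosome. Probe set 10541515 of Dppa3 had 4 of its 6 nearest numbers on chromosome 6, where the gene lies. The 6 nearest numbers to 10604135 were all on chromosome X, and those next to it belonged to the homeobox genes Rhox1 and Rhox8. The RefSeq annotation of GRCm38.p6 lists a pseudogene, Dppa3-ps, in the Rhox cluster of chromosome X between Rhox3g and Rhox2g. The platform annotation names the gene itself for both sets. Whether 10604135 reads the gene, the pseudogene or both was not tested, so the sets are not taken as independent measurements.

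Dppa2 and Dppa4 showed the same layout. Dppa2 was at 7.28 induced and 7.97 non-induced by probe set 10436053, which is numbered among chromosome 16 genes next to Dppa4 and Morc1, a difference of -0.69. By probe set 10463138, with all 6 nearest numbers on chromosome 19, it was at 9.83 and 10.10, a difference of -0.27. Dppa4 was at 9.10 and 9.53 by the set numbered on its own chromosome 16 (10436050), a difference of -0.43. By the set numbered on chromosome 2 (10486954) it was at 8.99 and 9.06, a difference of -0.07. For both genes the induced array was lower by either set, and the set numbered on the gene's own chromosome differed more. The gaps of 0.42 and 0.36 between sets were wider than in 80.2% and 76.2% of genes with several sets above the floor. Where a gene had several sets, the brighter was used for gene values, which for Dppa2 is the set numbered on chromosome 19. With the sets numbered on the genes' own chromosome, a choice made after these values were seen, the median of the 10 markers was -0.32. Dppa5a was at 13.16 induced and 13.02 non-induced, a difference of 0.14 within the spread between probe sets of a gene.

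Fbxo15, Zfp42 and Utf1 were lower in the induced array, by unequal amounts, while Dppa5a (0.14), Gdf3 (0.18) and Tcl1 (0.61) were higher. Fbxo15 was at 8.86 and 9.54, a difference of -0.68 or 1.61-fold lower, with 5.77% of genes above the floor below it. Zfp42 was at 9.27 and 9.74, a difference of -0.46 or 1.38-fold lower. Utf1 was at 10.64 and 10.77, a difference of -0.13, which is smaller than the spread between probe sets of a gene. Of Fbxo15, Zfp42 and Utf1, Fbxo15 alone passed a smaller size of log2 0.58. At that size 2 members were lower, Dppa3 and Fbxo15, and 1 was higher, Tcl1, against 8.45% of all genes above the floor lower and 5.31% higher. These counts depend on the choices made. Dppa2 would pass by the set numbered on its own chromosome (-0.69). Fbxo15 was at -0.54 after a second quantile normalization and Tcl1 at 0.51 with the arrays centred, both short of log2 0.58.

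Tcl1 went the other way. It was at 9.18 in induced and 8.57 in non-induced cells, which is 0.61 or 1.53-fold higher. Of the genes above the floor, 95.4% had a lower difference. The Tcl1b genes, which lie beside Tcl1 in a cluster on chromosome 12 and encode related proteins, were below the floor in both arrays, at 3.41 to 5.94 in the induced array. Tcl1b1, Tcl1b2, Tcl1b4 and Tcl1b5 differed by 0.27 to 0.41 and Tcl1b3 by -0.20. Their close sequence means that their probe sets may share signal. Akt1, which encodes a kinase bound by TCL1, differed by 0.11 and Akt2 by -0.14, with 0.08 by its other probe set. Pdpk1, which encodes the kinase that activates AKT, differed by -0.28.

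Promoter sequences from RefSeq (GRCm38.p6) were matched for 4 of the 10 markers, Tcl1, Tdgf1, Utf1 and Zfp42, each covering 250 bases before and 50 bases after a gene start. They were searched on both strands for the octamer bound by OCT4, ATGCAAAT, and for the core of the CTCF motif as AGGGGGC or AGGTGGC or AGAGGGC or AGATGGC. Of 32851 promoters 1.74% held the octamer and 27.6% a core word, and the motifs did not overlap in the promoters shown. Shown are Zfp42, which held the octamer and was lower in the induced array, Tcl1, which held a core word and was the highest in difference, and Utf1, which held 2 core words and differed little. Capitals mark the matches and each sequence is written 5′ to 3′ on the strand of the gene.
Zfp42 (chr8:43306960-43307259, minus strand): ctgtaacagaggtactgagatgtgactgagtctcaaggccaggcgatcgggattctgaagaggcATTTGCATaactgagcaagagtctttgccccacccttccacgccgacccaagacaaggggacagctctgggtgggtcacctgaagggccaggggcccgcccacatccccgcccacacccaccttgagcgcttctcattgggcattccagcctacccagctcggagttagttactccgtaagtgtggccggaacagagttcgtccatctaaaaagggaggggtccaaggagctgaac
Tcl1 (chr12:105222688-105222987, minus strand): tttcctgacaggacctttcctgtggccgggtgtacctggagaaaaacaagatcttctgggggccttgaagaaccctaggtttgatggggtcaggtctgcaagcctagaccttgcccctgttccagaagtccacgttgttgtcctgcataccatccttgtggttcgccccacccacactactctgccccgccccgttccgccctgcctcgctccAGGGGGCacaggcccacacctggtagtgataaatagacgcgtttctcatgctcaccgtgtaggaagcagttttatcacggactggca
Utf1 (chr7:139943606-139943905, plus strand): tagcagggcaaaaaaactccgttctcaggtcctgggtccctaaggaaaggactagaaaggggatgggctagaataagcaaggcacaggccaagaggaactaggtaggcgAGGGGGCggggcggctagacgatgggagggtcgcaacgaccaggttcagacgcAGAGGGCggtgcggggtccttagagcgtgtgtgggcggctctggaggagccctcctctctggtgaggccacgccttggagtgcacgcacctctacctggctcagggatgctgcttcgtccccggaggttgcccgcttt

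The octamer of Zfp42 began 186 bases before the start and lay on the opposite strand. The core word of Tcl1 began 37 bases before the start, and those of Utf1 141 and 88 bases before it. The Tdgf1 promoter held neither motif. The 3 promoters shown were richer in G and C than the median promoter (52.7%), at 57.7% for Zfp42, 56.7% for Tcl1 and 62.0% for Utf1, and Tdgf1 was poorer at 41.7%. The core word AGGGGGC was in the promoters of Tcl1 (0.61) and Utf1 (-0.13). Whether a motif bears on the difference of a gene was not tested. A match describes the letters and is not evidence of binding, and no match says only that the letters are not in this window.

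Gdf3 and Tdgf1, the ligand and the coreceptor of Nodal type signalling, differed little and in opposite directions. Gdf3 was at 9.45 induced and 9.27 non-induced, a difference of 0.18. Tdgf1 was at 10.96 and 11.17, a difference of -0.21. Both lay within the spread between probe sets of a gene. Of the 19 further genes listed for the pathway 17 were measured, of which 10 were below 0, 7 above and 0 reached log2 1, with a median of -0.19. Over the settings this median ran from -0.29 to -0.07. The ligand gene Nodal differed by -0.19, and the feedback inhibitor genes Lefty1 and Lefty2 by -0.54 and -0.31. Among transducers, Smad3 differed by -0.52, Smad2 by -0.30 and Smad4 by -0.07. The receptor gene Acvr2a was at -0.43 and Acvr1b at 0.27. Cfc1 (Cryptic), the paralog of Tdgf1, differed by 0.72.

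**Figure D3:**
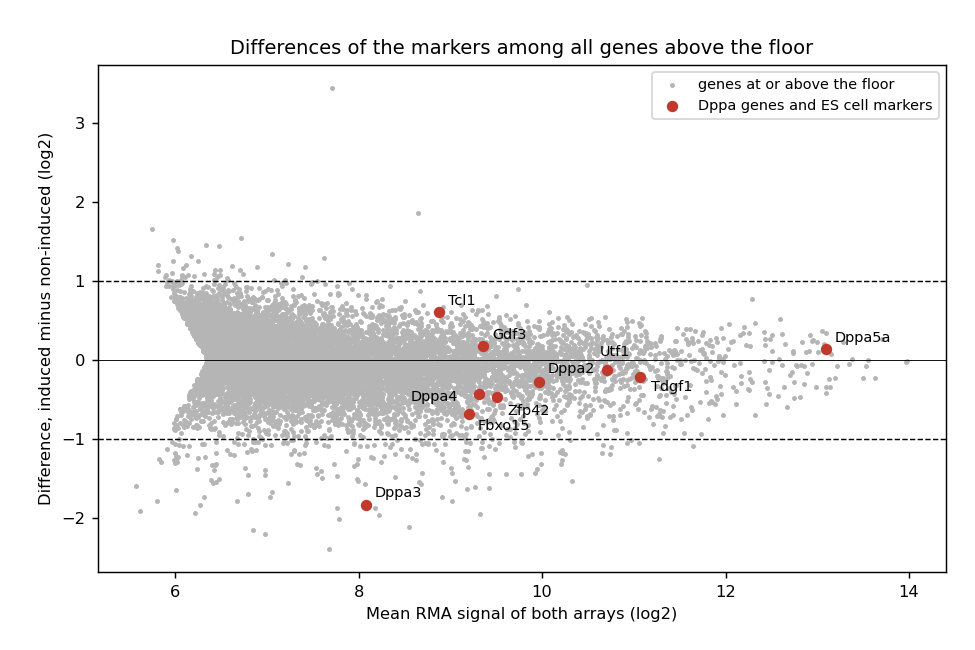
Log2 difference, induced minus non-induced (vertical axis), against the mean log2 RMA signal of both arrays (horizontal axis) for the 10697 genes above the floor in grey and the 10 markers in red. Dashed lines mark a size of log2 1. Dppa3 lies below the lower line at -1.83 and the other 9 lie between the lines, from -0.68 for Fbxo15 to 0.61 for Tcl1.

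The genes next to Dppa3 did not differ by as much. Dppa3 and Gdf3 are neighbours on chromosome 6 and are followed by Nanog, the homeobox gene of the naive state, and Slc2a3, a glucose transporter gene. Nanog was at 10.86 and 11.08 by its 1 probe set, a difference of -0.22. Slc2a3 differed by 0.34 and Foxj2, a forkhead gene, by 0.22. Apobec1, an RNA editing enzyme gene before Gdf3, was below the floor at a difference of -0.03. Mfap5, a matrix protein gene 4 protein-coding genes away from Dppa3, was at 6.31 and 7.45, a difference of -1.14.

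Neighbours of the other markers were then listed by gene order in RefSeq. Morc1, which encodes a germ cell repressor of transposons and follows Dppa2, was at 9.10 and 9.81, a difference of -0.71, and Nectin3, the nearest measured gene before Dppa4, differed by -0.30. Timm21, a mitochondrial import gene next to Fbxo15, was at 9.16 and 10.14, a difference of -0.98, while Cyb5a on the other side differed by -0.23. Triml1, the second gene from Zfp42, differed by -0.67 and Triml2, the nearest, by -0.01. Ooep, an oocyte gene of the same KH domain family as its neighbour Dppa5a, differed by 0.27. Kndc1 and Spef1l beside Utf1 differed by -0.15 and 0.16, and Als2cl and Lrrc2, the nearest measured to Tdgf1, by 0.01 and -0.31. Bdkrb2, a bradykinin receptor gene and the nearest measured gene on the other side of Tcl1, was at a difference of 0.68. Prss50, a testis protease gene 4 protein-coding genes from Tdgf1, was at 6.83 and 5.51, higher by 1.32. Over the 16 nearest measured neighbours that are not markers of the set themselves, 9 reached the floor, 10 were below 0, 0 were counted as lower or higher and the median was -0.05. Over the 48 such genes within 3 measured genes on each side, the median was -0.03. Of these, 22 reached the floor and could be counted, and 1 was lower (Mfap5) and 1 higher (Prss50), against 1.79% and 0.477% of all genes above the floor.

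**Figure D4:**
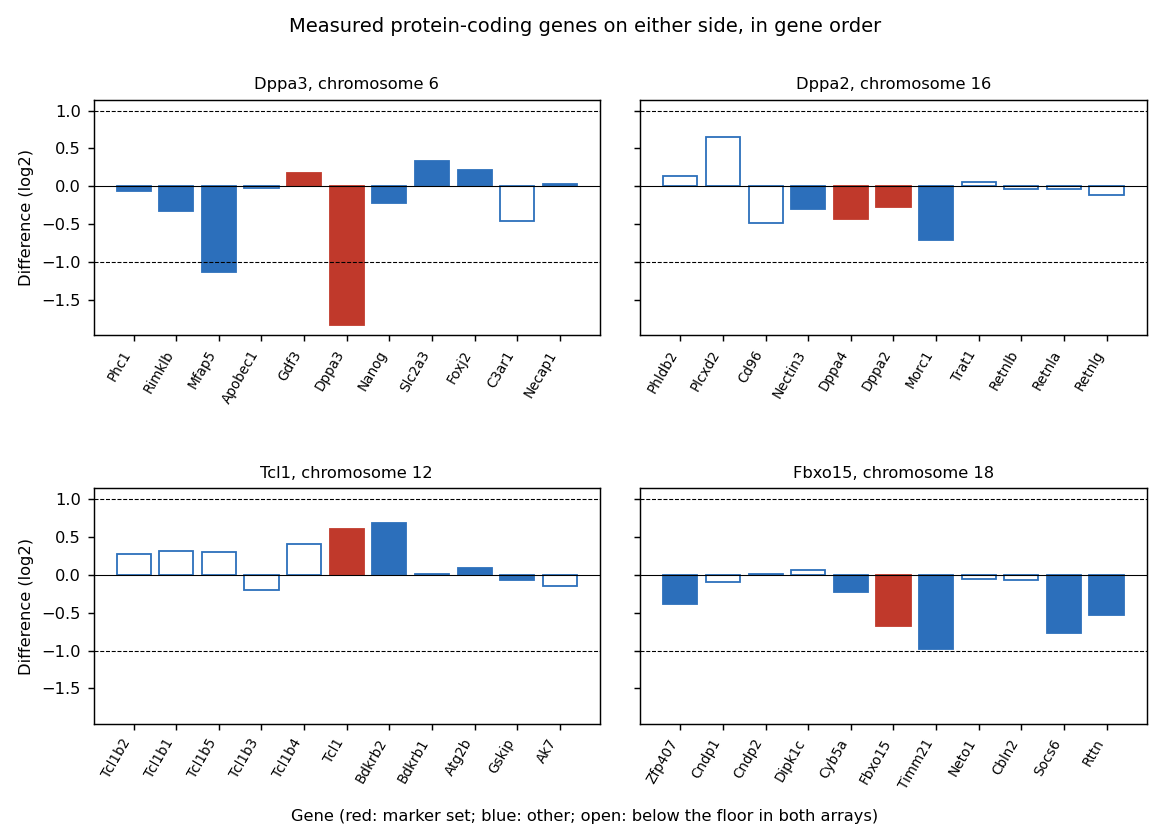
Log2 difference, induced minus non-induced (vertical axis), of Dppa3, Dppa2, Tcl1 and Fbxo15 and of the 5 nearest measured protein-coding genes on each side, in gene order (horizontal axis, not to distance). Markers of the set are red, other genes blue, and open bars lie below the floor in both arrays. The bar of Dppa3 (-1.83) reaches past those of Gdf3 (0.18) and Nanog (-0.22) beside it.

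Genes that work with the markers were examined from lists. Among 9 genes for partners of DPPA3 and for DNA methylation, 8 were below 0 and 0 were counted as lower or higher, with a median of -0.33. Over the settings this median ran from -0.43 to -0.23, the latter with 6 of 9 below 0. Uhrf1, whose product DPPA3 binds, differed by -0.03 and Dnmt1, the maintenance methyltransferase gene, by -0.14. The widest by the probe sets used was Dnmt3l, a cofactor of de novo methylation, at 8.80 and 9.64 (-0.84), and Dnmt3b differed by -0.51. Tet1, a dioxygenase gene, differed by -0.38 by its brightest probe set and by -0.60 and -0.35 by the others. Of 9 genes of the SCF ubiquitin ligase, which F-box proteins such as FBXO15 join, 6 were below 0 with a median of -0.24. This median ran from -0.34 to -0.16 over the settings, the latter with 5 of 9 below 0. The scaffold gene Cul1 differed by -0.62 and the adaptor gene Skp1 by -0.08.

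The remaining markers of ES cells differed less than Dppa3. All 16 measured of 17 listed pluripotency regulators were above the floor, and 0 were counted as lower or higher. Their median was -0.07, which turned above 0 under both the lowess (0.01) and the second quantile normalization (0.03). Pou5f1, which encodes OCT4, was at 11.98 and 11.96, Sox2 at 10.82 and 10.83 and Esrrb at 9.61 and 9.62. Klf2 differed by -0.37 and Prdm14, a germ line and naive state regulator, by -0.34, while Tfcp2l1 and Tbx3, other regulators of the naive state, differed by 0.49 and 0.53. Of 15 other ES cell markers measured, 9 were below 0 and 0 passed log2 1, with a median of -0.16 (-0.26 to -0.06 over the settings). Eras, an ES cell Ras gene, was the lowest at -0.84, and Jam2, a cell adhesion gene, the highest at 0.44. Dppa1, the remaining gene named Dppa on the array, was below the floor at 3.58 and 4.28.

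Markers of other cell types were also listed, as the induced cells were sorted and the others were not. Of 18 fibroblast genes 15 were above 0, with a median of 0.41, and their mean log2 signal was 6.99 in the induced and 6.63 in the non-induced array. 0 of the 18 reached log2 1. The 6 below the floor in both arrays were Dcn (-0.28), Postn (0.04), Lum (0.17), Tagln (0.32), Acta2 (0.42) and Pdgfrb (0.72). Among those that reached it, Vim (-0.25) and Ccn2 (-0.22) were the lowest and Loxl1 (0.85) and Ccn1 (0.94) the highest. The collagen genes Col1a1 and Col3a1 differed by 0.42 and 0.53. Primitive endoderm genes had a median of 0.25 with 9 of 13 above 0 (mean 6.34 and 6.21), and mesoderm genes a median of 0.20 with 6 of 8 above 0 (mean 6.31 and 6.09). Over the other settings these medians went as low as 0.31 for fibroblast, 0.13 for primitive endoderm and 0.08 for mesoderm genes, the last with 4 of 8 below 0. Neural (0.04) and trophoblast (0.02) medians were close to 0 and turned below 0 in other settings (lowest -0.06 and -0.08). Of the 7 neural genes measured 3 reached the floor and could be counted. Of these 1 was lower, Stmn2, a gene of neuronal microtubules, at 6.67 and 7.86 (-1.19), against 1.79% of all genes above the floor. Pax6, below the floor in both arrays, differed by 1.12. The widest differences in 4 of the lists were 0.94 for Ccn1 (fibroblast), -0.85 for Foxa2 (primitive endoderm), 0.76 for Tbx6 (mesoderm) and 0.70 for Krt7 (trophoblast). Foxa2 went against most of its list, in which Hnf4a was the highest at 0.76. For formative and epiblast genes the median was -0.02, turning above 0 in 2 settings (highest 0.03), but single genes differed widely. Of the 8 that reached the floor, Zic2 was counted as lower (-1.26) and Sall2 (1.01) and Nkx1-2 (1.18) as higher. The shares over all genes above the floor were 1.79% and 0.477%. The main marker of primed cells, Fgf5, stayed below the floor at 5.82 and 5.92. The part of other cell types in the values of Dppa3, Fbxo15 and Zfp42 was not tested.

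**Figure D5:**
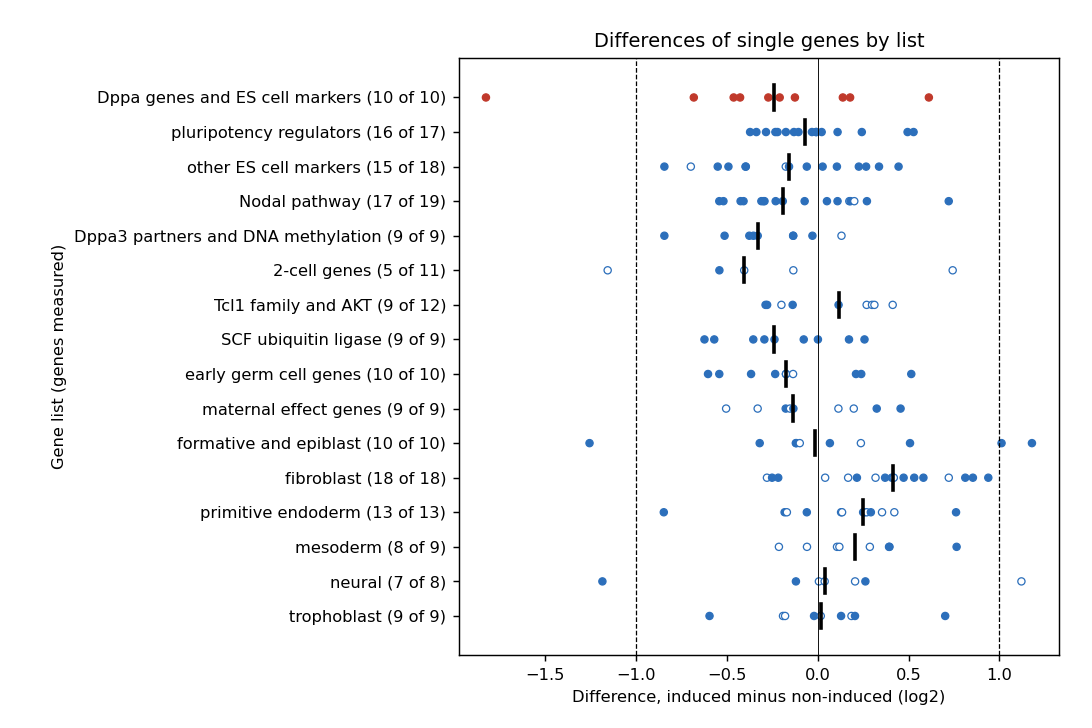
Log2 difference, induced minus non-induced (horizontal axis), of each measured gene in 16 lists (vertical axis, with the number measured of the number listed). Filled points reached the floor, open points did not, black bars are medians and dashed lines mark log2 1. The 10 markers (red) have a median of -0.24 with Dppa3 far to the left, and the fibroblast list has the highest median (0.41).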

How the data were processed

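RNA from 1 induced and 1 non-induced culture (300 ng each) was put by the authors on Affymetrix Mouse Gene 1.0 ST arrays. Each probe set has 1 deposited log2 value per array, obtained by the authors with RMA (background correction, quantile normalization and probe summary), which compresses the differences of dim genes. The log2 unit was read from their range (1.36 to 14.5). For the array annotation, version and build were not given in the sources used here.

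Of 35557 probe sets 21789 had 1 gene symbol in the platform annotation. Sets with several (1621) or none (12147) were left out. Symbols were updated through gene identifiers for 21698 of them with RefSeq GRCm38.p6, and each gene took its probe set of highest mean. With 1 array per group no test was made, and the number of arrays limits the precision. All members were named. By the rule, the nearest genes of each member and the 3 widest differences each way in a list could be named, with any of log2 1 or more, and not all of these are printed. Other genes, such as Pou5f1, Sox2 and Uhrf1, were chosen after their values were seen. The members and lists were chosen with earlier results of these data known, which is why no result is offered as independent support.

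Alternatives were centring, lowess removal of the trend with level (fraction 0.3), quantile normalization again, a linear offset of 32, averaging over the probe sets of each gene, a size of log2 0.58, no floor and a floor at the 75th percentile (7.64). The probe set numbered on the gene's own chromosome was added after the data were seen. The steps were tested on simulated data. Python 3.11.15 with numpy 2.4.6, pandas 2.3.3, statsmodels 0.14.6 and matplotlib 3.10.9 was used.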

Additional observations from a re-analysis of the deposited data

How the results depend on the processing

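With 1 array per group no replicate could be left out. No paired analysis was possible because there was 1 array in each group. A difference or a median was taken as moved when it shifted by 0.31 or more, the SD between probe sets of a gene. Counts of markers were judged by their ratio instead, and any change from 0 was taken as moved. Dppa3 stayed lower by log2 1 or more under each of the 6 alternative scalings and probe set choices, from -1.93 (arrays centred) to -1.62 (offset of 32). Of the 84 alternative values of the 10 markers and their counts, 81 kept to the reported value and 0 changed direction. The 3 that moved were the lower and the higher count at a size of log2 0.58, and Dppa2 by its other probe set. Many of the 84 values could not move. The 7 markers with 1 probe set have the same value under both probe set choices. The limit of 0.31 is also wider than the reported differences of Dppa2, Tdgf1, Utf1, Dppa5a and Gdf3. The count of 81 is therefore not a measure of how stable these markers are. At a size of log2 0.58 in place of log2 1, 2 markers were lower and 1 higher by the main values. Neither Fbxo15 nor Tcl1 kept to that size in every setting. Dppa2 moved to -0.69 with the probe set numbered on its own chromosome. Centring shifted the median of all genes by -0.10 and counted 268 lower and 25 higher genes, against 191 and 51 without it, and with the offset 108 were lower and 10 higher. Over the alternatives, Fbxo15 ranged from -0.78 to -0.54, Zfp42 from -0.56 to -0.34, Utf1 from -0.22 to -0.01, Tdgf1 from -0.31 to -0.12, Dppa5a from 0.04 to 0.17, Gdf3 from 0.08 to 0.31 and Tcl1 from 0.51 to 0.74.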

Other observations

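Genes that share an expression stage with Dppa3 went both ways. Of 10 early germ cell genes 7 were below 0 and 0 were counted as lower or higher, with a median of -0.18. Lin28b, an RNA-binding repressor of let-7, was at 6.51 in the induced and 7.12 in the non-induced array (-0.60), and Nanos3, which protects primordial germ cells, differed by -0.54. Dnd1, an RNA-binding gene of the same cells, was at 6.94 and 6.43 (0.51), and Prdm1, their founding regulator, was below the floor at 6.09 and 6.23. Of 9 maternal effect genes 4 reached the floor, of which Zar1 was at a difference of 0.46 (0.50 by its other probe set), Tle6 at 0.32, Zbed3 at -0.18 and Trim28 at -0.13. The median of all 9 was -0.13 and turned to 0.01 in 1 setting.

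Of 11 genes listed for the state of the 2-cell embryo, which DPPA2 and DPPA4 are known to promote in ES cells, 5 were measured with 1 gene symbol. Eif1a was the 1 above the floor, at 8.75 and 9.29 (-0.54). The other 4 were below the floor in both arrays, and Usp17la, at 2.98 and 4.14, had the widest difference (-1.16).

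Among formative and epiblast genes, Zic2, a zinc finger gene, was at 5.36 and 6.62 (-1.26), and Sall2 and Nkx1-2 were higher by 1.01 and 1.18. Of the 10 listed 8 reached the floor, and 1 was thus lower and 2 higher, against 1.79% and 0.477% of all genes above the floor.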
